A study of Homo sapiens with 4 samples.

Results

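The genes described here encode the enzymes that make serine from a glycolytic intermediate (PHGDH, PSAT1, PSPH), the enzyme that makes asparagine (ASNS), and the folate-dependent enzymes that carry one-carbon units in the mitochondria (SHMT2, MTHFD2, MTHFD1L, ALDH1L2) and in the cytosol (SHMT1, MTHFD1). They were taken by gene symbol from the deposited expression tables, where all 10 were found among 25192 genes and all 10 passed the filter on low counts. RNA-seq had been performed on A549, a human lung adenocarcinoma cell line, in duplicates of 2 groups. Cells of the first group were transduced with a control empty virus (EV) that expresses only GFP, and cells of the second group with a retrovirus that expresses V5-tagged full-length FCN3, a secreted lectin, together with GFP. Total RNA was taken 48 h after infection in both groups. No selection of transduced cells is described for the sequenced samples, so a change in all cells and a larger change in some of the cells cannot be told apart, nor can fewer cells of a kind and less RNA per cell.

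PHGDH, PSAT1 and PSPH act in sequence to turn 3-phosphoglycerate into serine. Serine hydroxymethyltransferases then move a carbon of serine onto tetrahydrofolate, which leaves glycine, and the MTHFD enzymes oxidise or reduce that carbon on its way to formate, purines and thymidylate. The pathway exists in parallel in mitochondria and cytosol. ASNS uses aspartate and glutamine to make asparagine. ATF4, the transcription factor whose translation rises when eIF2alpha is phosphorylated, is a known activator of ASNS, PHGDH, PSAT1, MTHFD2 and other genes of amino acid supply, and PERK is the eIF2alpha kinase that responds to unfolded protein in the ER. The comparison below asks how transcripts of these enzymes differed between FCN3-virus-transduced and EV cells.

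The 4 libraries summed to between 16353554 and 35733735 expected counts, with replicate 1 sequenced more deeply than replicate 2 in either group. FCN3 had at most 1 expected count in an EV library and took 2.06% and 2.23% of all counts in the FCN3 libraries. The epithelial markers EPCAM, KRT8, KRT18, KRT7, KRT19 and CDH1 summed to between 7823 and 10242 TPM (transcripts per 1000000, a level per transcript length) in every library. Nearly all of this came from KRT7, KRT8 and KRT18. EPCAM (1.09 to 3.65 TPM) and CDH1 (3.35 to 9.53 TPM) were low. Their log2 fold changes, FCN3 virus over EV, were -1.12 and -0.53. Those of KRT7, KRT8, KRT18 and KRT19 were 0.09, 0.26, 0.31 and 1.24. Of the markers of other cells, 5 of 5 endothelial, 5 of 7 fibroblast and 4 of 6 immune genes stayed under 1 TPM in every library, and DCN and CD3E had no counts. The summed immune list lay at 36.6 to 37.5 TPM in EV cells and 51.0 to 63.1 TPM with the FCN3 virus, nearly all of it from CD68, a lysosomal membrane protein that is not restricted to macrophages. The summed fibroblast list lay at 14.5 to 20.2 and 9.53 to 14.4 TPM. The part of these markers in the results was not tested. Values in counts per 1000000 (CPM) are scaled by the TMM method.

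Of the 10 genes, 8 were higher and 2 were lower with the FCN3 virus, and in none of them did the groups overlap. Over all 14099 tested genes, the FCN3 libraries were both above the pair of EV libraries in 28% and both below in 26.5%. At an FDR of 0.01, edgeR's quasi-likelihood test called 5 of the 10 genes higher (ALDH1L2, ASNS, PHGDH, MTHFD2 and PSAT1) and 0 lower, against 0.738% and 0.227% of all tested genes. Once replicate number entered edgeR as a block, all 10 were called, 8 higher and 2 lower, against a background of 19.1% and 17.1%. DESeq2 without a block called 7 higher and 1 lower (background 4.43% and 3.43%) and with the block 8 and 2 (background 8.1% and 8.08%), and at an unadjusted p below 0.05 edgeR without the block found 8 and 2 (background 13.6% and 11.6%). The median log2 fold change was 0.97 over the 10 genes and 0.016 over all tested genes. The summed level of the 10 genes was 1056 and 953 TPM in EV replicates 1 and 2 and 1786 and 1837 TPM in FCN3 replicates 1 and 2. Genes were tested one by one only within fits across the whole table, because a two-sided exact permutation test on 4 libraries bottoms out at p = 0.333.

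**Figure D1:**
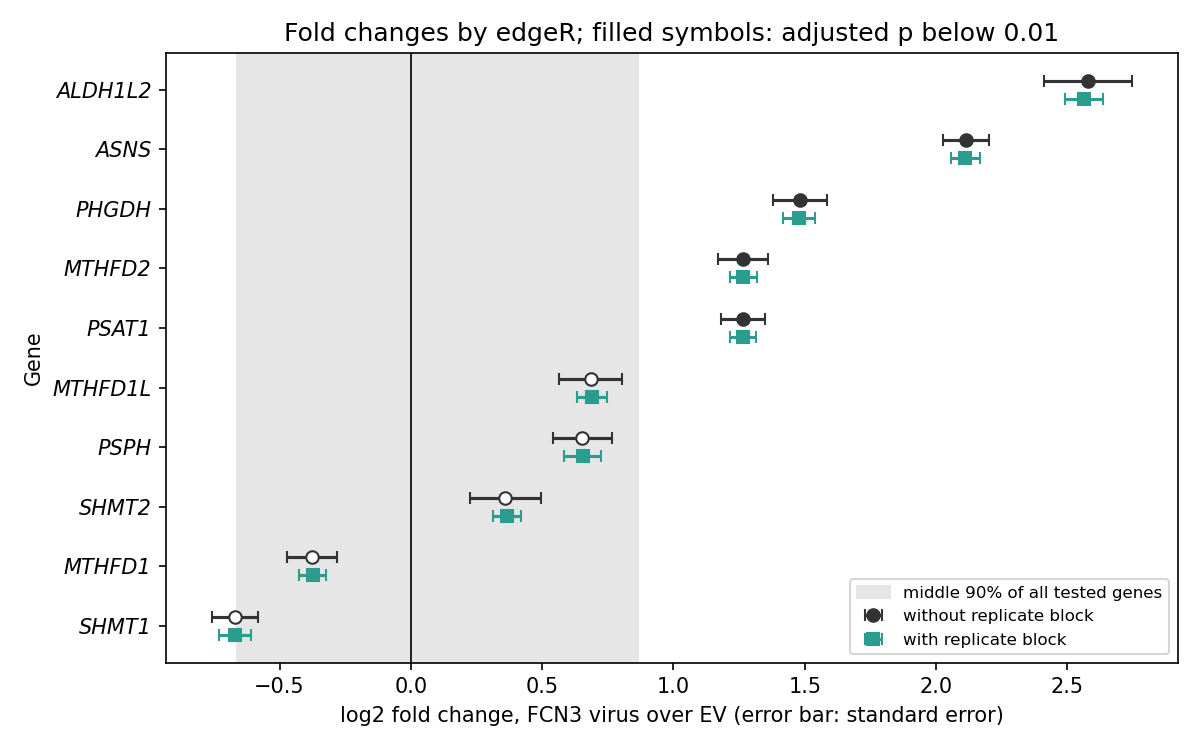
Log2 fold change of each gene, FCN3 virus over EV, from edgeR without (circles) and with (squares) the replicate number as a block. Error bars are standard errors, filled symbols have an adjusted p below 0.01, and the grey band spans the middle 90% of all tested genes, from -0.66 to 0.87. ALDH1L2 (2.58) and ASNS (2.11) lie farthest to the right, SHMT1 (-0.67) and MTHFD1 (-0.38) lie left of 0, and the block shortens the error bars without moving the points.

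The 3 enzymes of serine synthesis were all higher with the FCN3 virus, and the first and second passed the test without the block. PHGDH, the dehydrogenase that commits 3-phosphoglycerate to serine, spans 120191034 to 120286841 of chromosome 1 (GRCh37, plus strand). It was at 42.2 and 46.6 CPM in EV replicates 1 and 2 and at 117 and 130 CPM in FCN3 replicates 1 and 2. Both FCN3 libraries were far above both EV libraries, and replicate 2 was slightly the higher in each group. The rise was 2.79-fold (log2 fold change 1.48, SE 0.10, with an edgeR adjusted p of 0.0037, where SE is the standard error), and it was 1.47 and 1.48 on the log2 scale between the libraries numbered 1 and those numbered 2.

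PSAT1, the aminotransferase of the second step, spans 80912041 to 80945009 of chromosome 9 (plus strand). Its level was 257 and 238 CPM in EV cells and 600 and 589 CPM with the FCN3 virus. The groups were well apart, and the FCN3 libraries nearly coincided. PSAT1 rose 2.40-fold (log2 fold change 1.26, SE 0.08, edgeR adjusted p = 0.0031). PSPH, the phosphatase of the last step, spans 56078744 to 56119297 of chromosome 7 (minus strand), and was at 33.4 and 32.0 CPM in EV cells and 55.1 and 47.8 CPM with the FCN3 virus. Its log2 fold change of 0.65 (SE 0.11) was the smallest of the serine enzymes and did not pass 0.01 in edgeR without the block (adjusted p = 0.033, and 2.5e-11 with the block), whereas it passed in DESeq2 without the block (0.0018). The order of the levels per length was the same in every library, with PSAT1 above PHGDH and PHGDH above PSPH.

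ASNS, which spans 97480989 to 97501854 of chromosome 7 (GRCh37, minus strand), had one of the largest changes. Its level was 60.4 CPM in each EV library, 251 CPM in FCN3 replicate 1 and 272 CPM in FCN3 replicate 2. The EV libraries nearly coincided, and both FCN3 libraries were more than 4-fold higher. The log2 fold change was 2.11 (SE 0.09, edgeR adjusted p = 0.0012), above that of 99.3% of all tested genes. In TPM, ASNS went from 60.0 ± 0.127 to 242 ± 18.4 (SD, n = 2 in each group).

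ASNS is also a textbook target of ATF4, which binds with C/EBP proteins to a C/EBP-ATF response element (CARE) in its promoter. The RefSeq promoter table (GRCh38.p14, 250 bases before to 50 after each start site) holds windows for PHGDH, PSAT1, SHMT1, MTHFD1, MTHFD1L, MTHFD2 and ASNS. PSPH, SHMT2 and ALDH1L2 were not searched. The windows were searched on both strands for the CARE letters TGATGNAA and for the MYC E-box CACGTG. CARE letters were found in 2 of the 7 genes, ASNS and MTHFD1L, and in 4.46% of all 27305 genes of the table. E-box letters were found in 2 of the 7, MTHFD1 and MTHFD1L, and in 8.77% of all genes. A gene with more windows has more room for a match, and the 7 genes have 11 windows, 4 of them of MTHFD1L. Of all 35116 windows, 3.62% held CARE letters and 7.26% held E-box letters. The 30 bases around each match are shown because they carry these letters, which are given in capitals. A match is a description of the sequence and not evidence of binding. The MTHFD1L matches also fall in windows of some, but not all, of its other start sites. Counted from 1 of these, the CARE letters lie after the start, at bases 25 to 32. The E-box letters span that start, from base -1 to base 5.
ASNS, CARE, 68 to 61 bases before the upstream one of its 2 start sites, chr7:97872458-97872487, minus strand: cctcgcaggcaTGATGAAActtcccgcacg
MTHFD1L, CARE, 129 to 122 bases before the start site farthest downstream among those whose windows hold it, chr6:150866346-150866375, plus strand: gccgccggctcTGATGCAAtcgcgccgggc
MTHFD1L, E-box, 154 to 149 bases before the same start site, chr6:150866320-150866349, plus strand: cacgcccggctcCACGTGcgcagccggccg
MTHFD1, E-box, 15 to 10 bases before the start site, chr14:64388326-64388355, plus strand: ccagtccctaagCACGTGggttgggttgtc

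**Figure D2:**
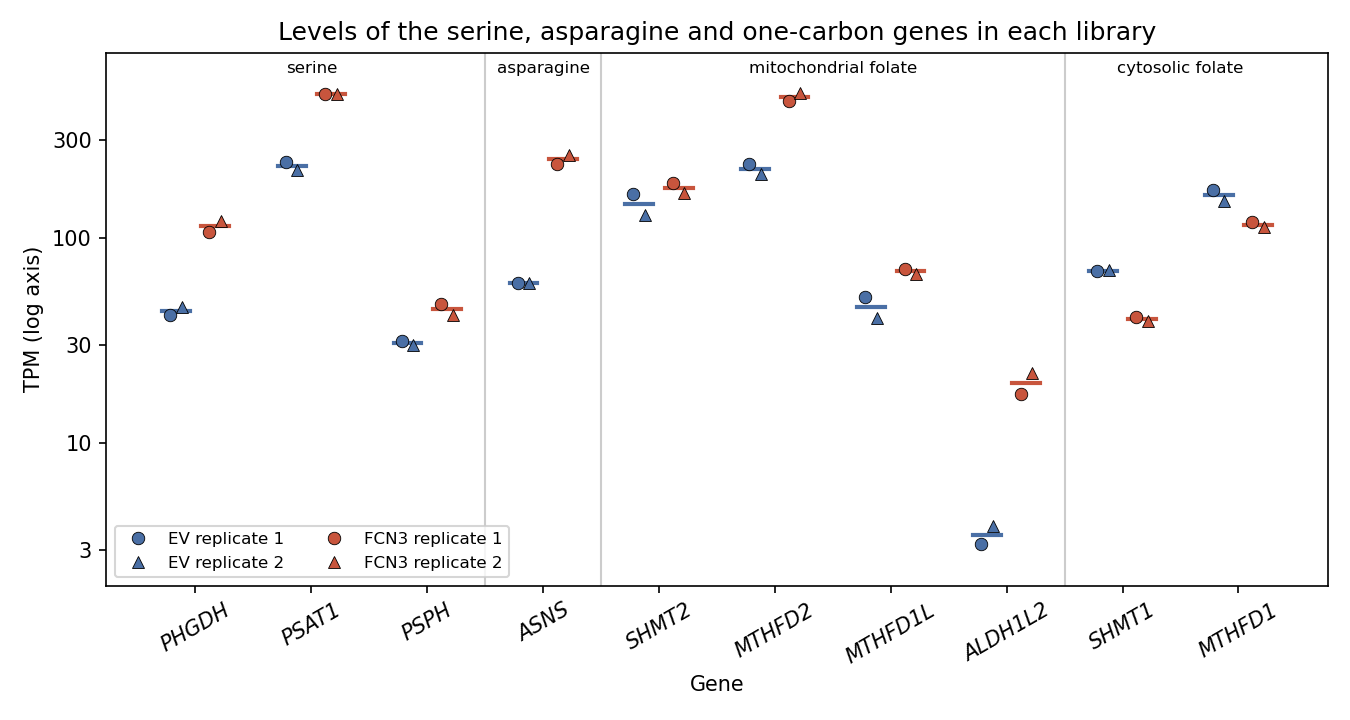
TPM of each gene in each library on a log axis, with EV libraries in blue, FCN3 libraries in red, circles for replicate 1, triangles for replicate 2 and a bar at the group mean. The red symbols lie above the blue ones for the serine genes, ASNS and the mitochondrial folate genes, and below them for SHMT1 (69.0 against 40.2 TPM) and MTHFD1 (162 against 116 TPM).

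All 4 mitochondrial folate enzymes among the 10 genes were higher with the FCN3 virus, by unequal amounts. MTHFD2L, a mitochondrial relative of MTHFD2 outside them, was not (log2 fold change -0.18, SE 0.25, overlapping groups, edgeR adjusted p = 0.71). MTHFD2L was low, at 2.74 and 2.15 CPM in EV cells and 2.24 and 2.21 CPM with the FCN3 virus, so a modest change could be missed. ALDH1L2, which oxidises 10-formyltetrahydrofolate in mitochondria and yields NADPH, spans 105413562 to 105501421 of chromosome 12 (GRCh37, minus strand). It was at 12.8 and 15.9 CPM in EV cells and at 75.7 and 93.7 CPM with the FCN3 virus. Replicate 2 was the higher one in both groups, and the gap between the groups was many times larger than the gap within them. ALDH1L2 rose 5.97-fold (log2 fold change 2.58, SE 0.17, edgeR adjusted p = 0.0031), the largest change of the 10 genes. At 3.55 ± 0.516 TPM in EV cells and 19.6 ± 3.17 TPM with the FCN3 virus (SD, n = 2), it remained the lowest of them per length.

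MTHFD2, the mitochondrial dehydrogenase and cyclohydrolase that is scarce in most adult tissues and abundant in proliferating cells, spans 74413299 to 74444692 of chromosome 2 (plus strand). Its values were 255 and 230 CPM in EV cells and 561 and 606 CPM with the FCN3 virus. Replicate 1 was the higher library in EV cells and the lower one with the FCN3 virus, so the fold change was 2.20 between the libraries numbered 1 and 2.64 between those numbered 2. The log2 fold change was 1.27 (SE 0.10, edgeR adjusted p = 0.0045), close to that of PSAT1.

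MTHFD1L, the mitochondrial synthetase that releases formate, spans 151186815 to 151423023 of chromosome 6 (plus strand) and was at 82.7 and 67.7 CPM in EV cells and 124 and 118 CPM with the FCN3 virus. Its log2 fold change of 0.68 (SE 0.12) passed 0.01 in edgeR only with the block (adjusted p = 0.034 without it, 1.6e-14 with it) and in DESeq2 also without it (3.8e-04). SHMT2, the mitochondrial serine hydroxymethyltransferase, spans 57623356 to 57628718 of chromosome 12 (plus strand) and was at 189 and 151 CPM in EV cells and 232 and 204 CPM with the FCN3 virus. In SHMT2 the spread within EV cells was nearly as large as the gap between the group means. Its log2 fold change of 0.36 (SE 0.14) was the smallest increase, with an adjusted p of 0.18 in edgeR without the block and 6.3e-08 with it. Without EV replicate 1 it was 0.54 and without EV replicate 2 it was 0.21. DESeq2 gave SHMT2 an adjusted p of 0.17 without and 7.7e-05 with the block.

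The cytosolic enzymes SHMT1 and MTHFD1 were lower with the FCN3 virus. ALDH1L1, a cytosolic enzyme outside the set, was not lower. Its log2 fold change was 0.69 (edgeR adjusted p = 0.37 without the block), at 0.49 and 0.66 CPM in EV cells and 1.00 and 0.70 CPM with the FCN3 virus. SHMT1, the cytosolic serine hydroxymethyltransferase, spans 18231174 to 18266877 of chromosome 17 (minus strand). It was at 86.0 and 87.6 CPM in EV cells and 56.6 and 52.4 CPM with the FCN3 virus. The spread within each group was small beside the gap between them. The log2 fold change was -0.67 (SE 0.09), with an adjusted p of 0.018 in edgeR without the block, 1.9e-13 with it and 2.3e-05 in DESeq2. MTHFD1, the cytosolic enzyme that carries 3 activities on a single chain, spans 64854749 to 64930175 of chromosome 14 (plus strand). Its values were 307 and 274 CPM in EV cells and 232 and 216 CPM with the FCN3 virus. The log2 fold change was -0.38 (SE 0.10), with an adjusted p of 0.080 in edgeR without the block and 1.4e-08 with it. DESeq2 gave MTHFD1 an adjusted p of 0.030 without the block and 7.8e-07 with it. With each library left out, its log2 fold change lay between -0.46 and -0.28. In MTHFD1 replicate 1 was the higher library in both groups.

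The balance between the compartments was measured as the ratio of TPM within a library, so that it does not depend on the scaling between libraries. SHMT2 stood at 2.38 and 1.87 times the level of SHMT1 in EV replicates 1 and 2, and at 4.49 and 4.26 times in FCN3 replicates 1 and 2. MTHFD1L stood at 0.298 and 0.268 times the level of MTHFD1 in EV cells and at 0.591 and 0.592 times with the FCN3 virus. The ratio of MTHFD2 to MTHFD1 was 1.34 and 1.36 in EV cells and 3.90 and 4.53 with the FCN3 virus. SHMT2, MTHFD1L and MTHFD2 were higher and SHMT1 and MTHFD1 lower in both FCN3 libraries, so these ratios had to separate the groups. They recombine changes already given, and 2 of them share MTHFD1. The ratios differed by 1.05, 1.06 and 1.64 on the log2 scale. For ALDH1L2 over its cytosolic counterpart ALDH1L1 the ratio was 11.0 and 9.78 in EV cells and 30.9 and 54.5 with the FCN3 virus, a difference of 1.99, where ALDH1L1 itself was at most 1.00 CPM in any library. Each difference had a two-sided exact permutation p of 0.333, the smallest that 2 libraries against 2 allow. SHMT2 also has transcripts for a form without the mitochondrial leader, which the gene-level values do not separate.

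**Figure D3:**
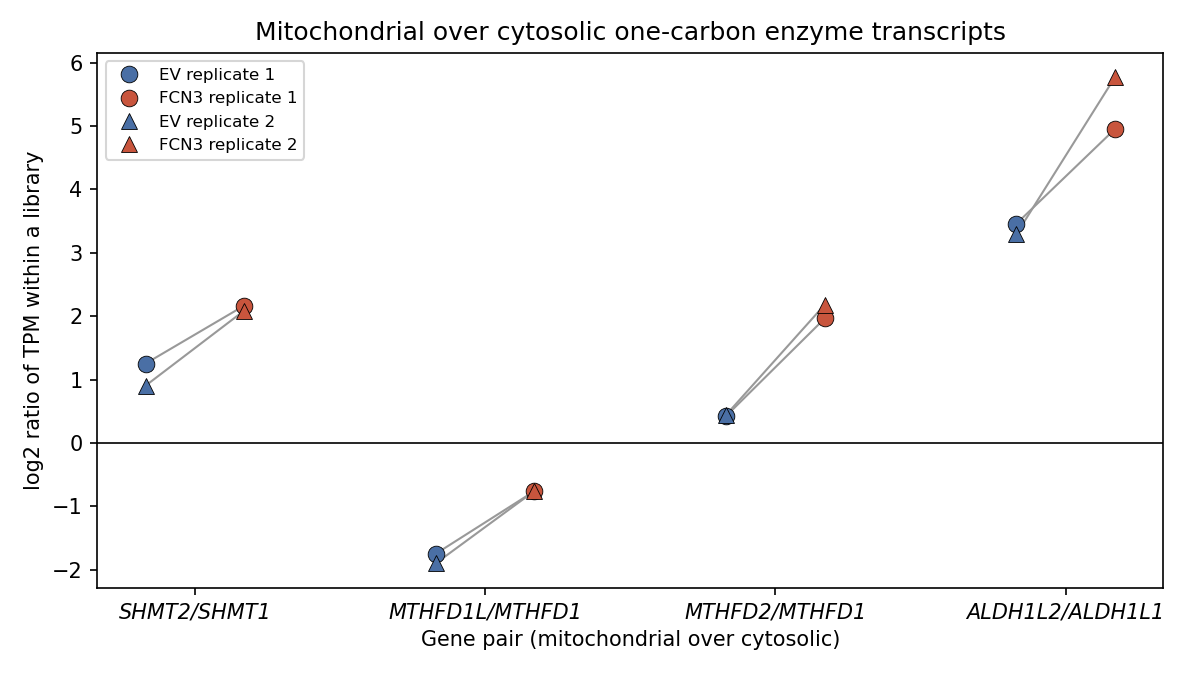
Log2 ratio of TPM of a mitochondrial over a cytosolic folate enzyme within each library, with grey lines joining libraries of the same replicate number. Every line rises from EV (blue) to FCN3 (red), by 0.91 and 1.19 for SHMT2/SHMT1, 0.99 and 1.14 for MTHFD1L/MTHFD1, 1.54 and 1.74 for MTHFD2/MTHFD1 and 1.50 and 2.48 for ALDH1L2/ALDH1L1.

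Ranked by TPM, the levels in EV cells ran from PSAT1 (225 ± 13.9 TPM) over MTHFD2 (218 ± 17.3), MTHFD1 (162 ± 14.2), SHMT2 (147 ± 23.6), SHMT1 (69.0 ± 0.643), ASNS (60.0), MTHFD1L (45.9 ± 7.39), PHGDH (43.9 ± 2.83) and PSPH (30.6 ± 1.10) to ALDH1L2. PSAT1 and MTHFD2, MTHFD1 and SHMT2, and MTHFD1L and PHGDH overlapped as neighbours in that order (SD, n = 2 throughout). With the FCN3 virus, ASNS moved from rank 6 to rank 3, PHGDH from rank 8 to rank 6, SHMT1 from rank 5 to rank 9 and MTHFD1 from rank 3 to rank 5. PSAT1 (502 ± 1.07 TPM) and MTHFD2 (488 ± 32.1 TPM) stayed at the top and overlapped again, as did MTHFD1 (116 ± 4.70) and PHGDH (114 ± 9.96). FCN3 transcripts enter the TPM total, and on the log2(TPM + 0.1) scale the median of all tested genes shifted by -0.10 from that in edgeR.

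Genes around these enzymes were described by lists, whose counts are to be read against the shares of all tested genes given above for each fit. Among 13 tested of 15 other genes of folate transport and metabolism, edgeR called 0 without the block (5 lower and 0 higher at an unadjusted p below 0.05, and 3 lower in DESeq2) and 6 lower and 1 higher with it. Their median log2 fold change was -0.18. With the block, GGH, a folate polyglutamate hydrolase (-0.63), and SLC19A1, the reduced folate carrier (-0.59), fell. Of the 12 genes of purine and thymidylate synthesis, which consume the carbon units, edgeR called 0 without the block (3 lower at an unadjusted p below 0.05, and 0 in DESeq2) and 6 lower and 1 higher with it, with a median of -0.14. The decreases with the block were small, such as TYMS, the thymidylate synthase (-0.35), PAICS (-0.33), PRPS1 (-0.30) and PFAS (-0.27).

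Of the 11 tested genes of glycine and serine use, edgeR called 0 without the block (1 higher at an unadjusted p below 0.05, and 0 in DESeq2) and 1 higher and 2 lower with it. Beside 19.1% and 17.1% of all tested genes, these counts do not set the list apart. The genes called were SPTLC2, a subunit of serine palmitoyltransferase (0.26), PTDSS1, which makes phosphatidylserine (-0.37), and GLDC, the glycine decarboxylase (-0.32). In GLDC the groups overlapped, at 57.8 and 85.5 CPM in EV cells and 47.0 and 67.5 CPM with the FCN3 virus. In the methionine cycle and transsulfuration list 1 of 8 tested genes was called. CBS, which joins serine to homocysteine, was at 18.6 and 22.3 CPM in EV cells and 65.2 and 77.2 CPM with the FCN3 virus, and rose by 1.81 on the log2 scale (SE 0.14, edgeR adjusted p = 0.0055). AHCYL1 (-0.37) and MAT2A, which makes S-adenosylmethionine (-0.30), were called by edgeR only with the block. In MAT2A the groups overlapped, at 443 and 559 CPM in EV cells and 340 and 477 CPM with the FCN3 virus.

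Among 16 tested genes of aspartate, glutamine and proline supply, 3 were called higher and 0 lower without the block (4 lower at an unadjusted p below 0.05, and 0 lower in DESeq2), and 7 higher and 5 lower with it. BCAT1, the cytosolic branched-chain aminotransferase, rose from 32.5 and 31.8 CPM to 107 and 125 CPM (log2 fold change 1.85, edgeR adjusted p = 0.0030). GOT1, the cytosolic aspartate aminotransferase, rose by 1.21 (adjusted p = 0.0074) and PYCR1, of proline synthesis, by 1.18 (edgeR adjusted p = 0.0031). GPT2, the mitochondrial alanine aminotransferase, had a log2 fold change of 1.05 and an adjusted p of 0.010 in edgeR that lay just above the threshold, and it was called with the block (2.3e-18). The median of this list was -0.023.

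Of 10 genes listed as regulators, 8 lay above both EV libraries in both FCN3 libraries, as did 28% of all tested genes. Their log2 fold changes had a median of 0.95, and 5 were called higher without and 8 with the block. ATF4 was at 273 and 297 CPM in EV cells and 413 and 457 CPM in FCN3 cells (log2 fold change 0.61, edgeR adjusted p = 0.026 without and 2.3e-15 with the block). CEBPG, which pairs with ATF4, rose from 91.5 and 89.9 CPM to 210 and 232 CPM (1.28, adjusted p = 0.0035), and EIF2AK3, which encodes PERK, rose by 1.47 (edgeR adjusted p = 0.0030). DDIT3, TRIB3 and ATF3 were the other genes called, of which the paper had already reported DDIT3 as up-regulated. Whether these genes act on the 10 enzymes was not tested. EIF2AK4, which encodes the amino acid sensing kinase GCN2, had a log2 fold change of 0.054 (SE 0.11, edgeR adjusted p = 0.80 and 0.48 with the block), and CEBPB one of 0.20 (0.50 and 0.019). The groups overlapped in both genes. For CEBPB the log2 difference was 0.54 between the libraries numbered 1 and -0.14 between those numbered 2. MYC (0.42) and NFE2L2 (0.39), known activators of serine and one-carbon genes in cancer cells, were called by edgeR only with the block, and MYC also by DESeq2 without it (adjusted p = 0.0069).

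**Figure D4:**
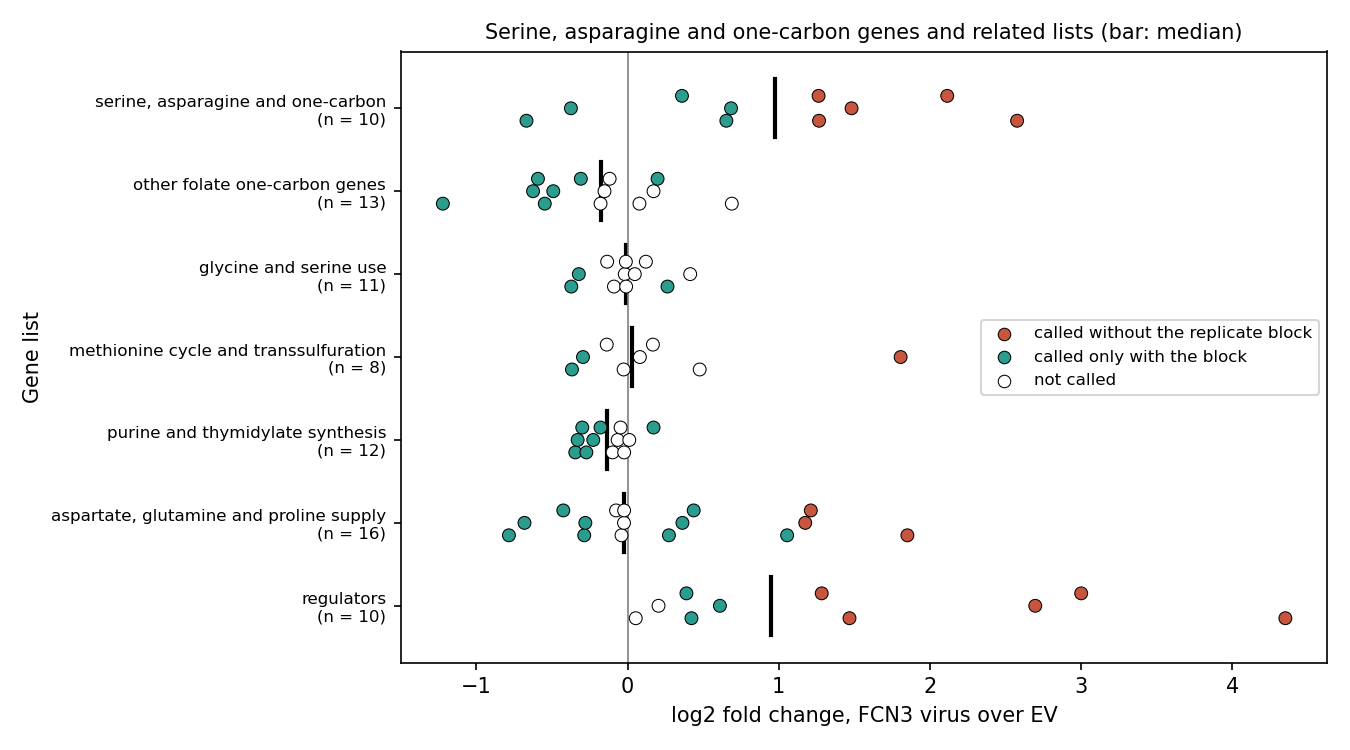
Log2 fold change, FCN3 virus over EV, of each tested gene by list, with a bar at the list's median. Red genes were called by edgeR without the replicate block, green ones only with it and white ones in neither fit. The medians of the 10 enzymes (0.97) and of the regulators (0.95) lie well right of 0, and those of the other lists lie between -0.18 and 0.027.

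The genes with the profile most like that of an enzyme were sought by Euclidean distance between log2 CPM values centred on each gene's mean over the 4 libraries, among 11968 other genes. With 4 libraries in 2 groups, this distance mostly reflects the fold change, so near genes have similar fold changes by construction. Shared regulation was not tested. Nearest to ASNS were PCK2, the mitochondrial phosphoenolpyruvate carboxykinase (distance 0.20, log2 fold change 2.07), DNAJB11 (0.23, 2.08), an ER co-chaperone, and NUCB2 (0.24, 2.35). Nearest to PHGDH were PPIB, an ER peptidyl-prolyl isomerase (0.067, 1.50), PPAPDC1B (0.096, 1.57) and AKNA (0.14, 1.61). For SHMT2 the nearest genes, PEX2, RWDD2B and TGDS, lay within a distance of 0.018 with log2 fold changes from 0.35 to 0.37, of which none was called without the block (adjusted p from 0.20 to 0.27 in edgeR).

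Libraries of the same replicate number shared part of their deviations in some of these enzymes. With the condition in the model, edgeR called SHMT2 lower in replicate 2 than in replicate 1 (-0.25 on the log2 scale, adjusted p = 1.5e-04) and ALDH1L2 higher (0.31, adjusted p = 4.5e-04). Beside 22.2% of all tested genes, these 2 of the 10 genes do not set the enzymes apart. The mean transcript length that RSEM assigned to a gene, which moves when the mix of its transcripts moves, differed by at most 1.02-fold between libraries (MTHFD1L). In GENCODE on GRCh37, SHMT1 shares 2.81% of its exonic bases with SMCR8 on the opposite strand, and the largest opposite-strand overlaps of MTHFD2, MTHFD1 and SHMT2 are 11.6% with SLC4A5 and 8.96% and 7.67% with a lncRNA each. ASNS shares 49.3% with a lncRNA annotated on the same strand, whose reads could not be told apart from its own. Named pseudogenes are annotated for 6 of the 10 genes, most for MTHFD2 (7) and ASNS (5), and reads that fit such copies are a source of uncertainty.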

How the data were processed

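RNA-seq libraries of A549 cells were compared, 2 from EV and 2 from FCN3-virus-transduced cells, grouped by the sample titles. Trimmed reads had been aligned to hg19 by STAR 2.6.1d and quantified by RSEM. For each RefSeq gene the authors deposited an expected count, which need not be whole, and TPM and FPKM, which are normalized for length and depth (FPKM was not used). The strand setting of the counting is not given in the sources used here.

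After rounding, the counts were compared in edgeR 4.0.16 under R 4.3.3 (TMM, filterByExpr, quasi-likelihood test, Benjamini-Hochberg adjustment over 14099 genes, FDR 0.01), in fits that left out or included a block for replicate number. A standard error is the size of the log2 fold change over the square root of F. The study's tool, DESeq2 1.42.0, and limma 3.58.1 on log2(TPM + 1) and log2(TPM + 0.1) were alternatives, beside RLE factors, other filters, an offset from effective lengths, an FDR of 0.05 and each library left out. The code was tested on simulated data. Duplicates are not described as separate cultures, so p-values without the block measure the spread between these libraries. With the block, the difference between replicate numbers is taken out first. So few libraries then leave little spread to measure in any single gene, and these p-values lean mainly on variance shared across genes. At a floor of 3 counts, the smallest visible level was between 0.084 and 0.183 CPM, for counting error only.

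The genes and lists were chosen with earlier results of these data known. All 10 enzymes were named, and ALDH1L1 and MTHFD2L as relatives of ALDH1L2 and MTHFD2. In each other list, up to 4 genes were named, those with the largest change among genes called with the block, at 1 CPM or more. Also named were any regulator and the 3 nearest profiles of ASNS, PHGDH and SHMT2. Results for some genes under this rule are not reported here.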

Additional observations from a re-analysis of the deposited data

How the results depend on the processing

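The direction of all 10 enzymes was kept under every setting run, and ALDH1L2, ASNS, PHGDH, MTHFD2 and PSAT1 were called under all of them. The replicate block, which the labels support only by shared numbers (differences between replicates in EV and FCN3 cells had Pearson's r = 0.81 across 8310 genes, which are not independent), changed most counts. Called genes went from 136 (104 higher, 32 lower) to 5103 (2690, 2413) with the block in edgeR, 1047 (590, 457) in DESeq2, 2212 (1107, 1105) in DESeq2 with the block and 1014 (624, 390) at an FDR of 0.05. Called enzymes went from 5 higher and 0 lower to 8 and 2 with the block in either tool, and to 1 lower in DESeq2 and at an FDR of 0.05.

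With the block, edgeR called 12, 3, 3, 7, 7 and 8 genes of the lists for aspartate, glutamine and proline supply, glycine and serine use, the methionine cycle, other folate genes, purine and thymidylate synthesis, and regulators, and DESeq2 called 7, 2, 3, 5, 4 and 8, from 3, 0, 1, 0, 0 and 5 in edgeR without it. Other folate genes numbered 3 in DESeq2 and 2 at an FDR of 0.05, where aspartate supply had 5, and limma on log2(TPM + 1) called 0 of the methionine cycle. With each library left out, 91 to 285 genes were called (78 to 195 higher, 13 to 90 lower; most without EV replicate 2, fewest without FCN3 replicate 1) and 0 to 1 other folate genes. The cause of these shifts was not tested. No sum with pseudogene copies was formed, since no copy was matched by symbol. Depth limits ALDH1L1, with 11 to 34 counts a library, and MTHFD2L, with 36 to 100.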
